A study of Mus musculus with 6 samples.

Results

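Iron handling was followed through 10 genes in mouse cerebral cortex: the transferrin receptors Tfrc and Tfr2, transferrin (Trf), the ferritin chains Fth1 and Ftl1, the iron transporters Slc40a1 and Slc11a2, the iron regulatory proteins Ireb2 and Aco1, and Hfe. They were represented by every probe set that the platform annotation assigns to one of these symbols. Of 45037 probe sets besides 64 controls, 19 carried 1 of these symbols alone, and 3 of the control probe sets, made for mouse Tfrc, did as well. These 22 probe sets covered 8 of the 10 genes, among 18193 genes with a probe set of their own on the platform. Trf and Ftl1 were found only on 4 shared probe sets, which the annotation assigns to several genes at once. RNA came from the cerebral cortex of wild type mice (3 arrays) and of mice labelled Egr1/Egr3 double knockout (3 arrays). Egr1 and Egr3 are early growth response transcription factors, which neurons make rapidly when active. The labels give no strain, sex, age, agent or allele, nor whether arrays within a group stem from different animals, so errors and tests measure the spread between these arrays. The title of double knockout replicate 1 names no genotype, and its group was taken from its description. The 10 genes were chosen by their role and with the group differences on these same arrays already known, so their differences are given as descriptions.

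Cells take up iron mostly as transferrin, which circulates with bound ferric iron, docks on the transferrin receptor Tfrc and is carried into acidic endosomes, where the iron is freed and leaves through the transporter Slc11a2 (DMT1). Iron that is not used is stored in shells of ferritin built from heavy (Fth1) and light (Ftl1) chains or leaves the cell through ferroportin (Slc40a1). The iron regulatory proteins Aco1 (IRP1) and Ireb2 (IRP2) bind stem-loops in messenger RNAs when iron is scarce, which protects Tfrc message from decay and blocks the translation of ferritin message. In brain, the capillary endothelium carries Tfrc and moves iron across the blood-brain barrier, neurons also carry it, and oligodendrocytes and choroid plexus make transferrin.

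Values are the authors' scaled signals, in which the average brightness of all arrays had been made equal. Array medians lay between 36.2 and 39.5. All 12 neuron markers with a probe set of their own were above the median of every array. The brighter Egr3 probe set read 1189, 2670 and 924 in wild type, against 339, 369.9 and 507 in knockout-labelled arrays. Signal of the Egr1 probe set went the other way, at 1247, 2054 and 1430 against 2116, 2647 and 2657, so the group is called by its label throughout. Spiked controls of wild type replicate 1 were dim, at 0.342 to 0.497 of their median elsewhere, and double knockout replicate 2 alone had female Xist signal, at 3140. None of the 10 genes lies on the chromosome of Egr1 or of Egr3.

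Among tested probe sets, all 3 of Tfrc, 1 of Tfr2 and both of Fth1 stood higher in knockout-labelled arrays. Those of Fth1 shrank when all arrays were given the same distribution, and 2 Tfrc controls, left out of the test, overlapped. A probe set of the exporter Slc40a1 and one that Trf shares stood lower, and the remaining genes overlapped or went unevenly. Differences below are of log2(signal + 16), double knockout label minus wild type, with the standard error (SE) of limma, a linear model fitted across all tested probe sets. A probe set was tested when its mean over all arrays exceeded the median probe set, and called when its Benjamini-Hochberg adjusted p was under 0.05. Of the 19 probe sets with 1 symbol, 16 were tested, and 2 of them were called, both higher: 1 for Tfrc and 1 for Tfr2. Over all 22518 tested probe sets 0.426% were called higher, 0.591% lower and 1.02% in either direction. The groups did not overlap for 6 of the 16 in the higher direction and for 1 in the lower, where the shares over all tested probe sets were 11.5% and 10.7%. The median difference of the 16 was 0.13, beside 0.0093 over all tested probe sets. One Tfrc probe set passed the filter only through its higher group and the tested Hfe probe set only through wild type. Nothing is read from these counts, because the same contrast was in view when the genes were chosen.

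**Figure D1:**
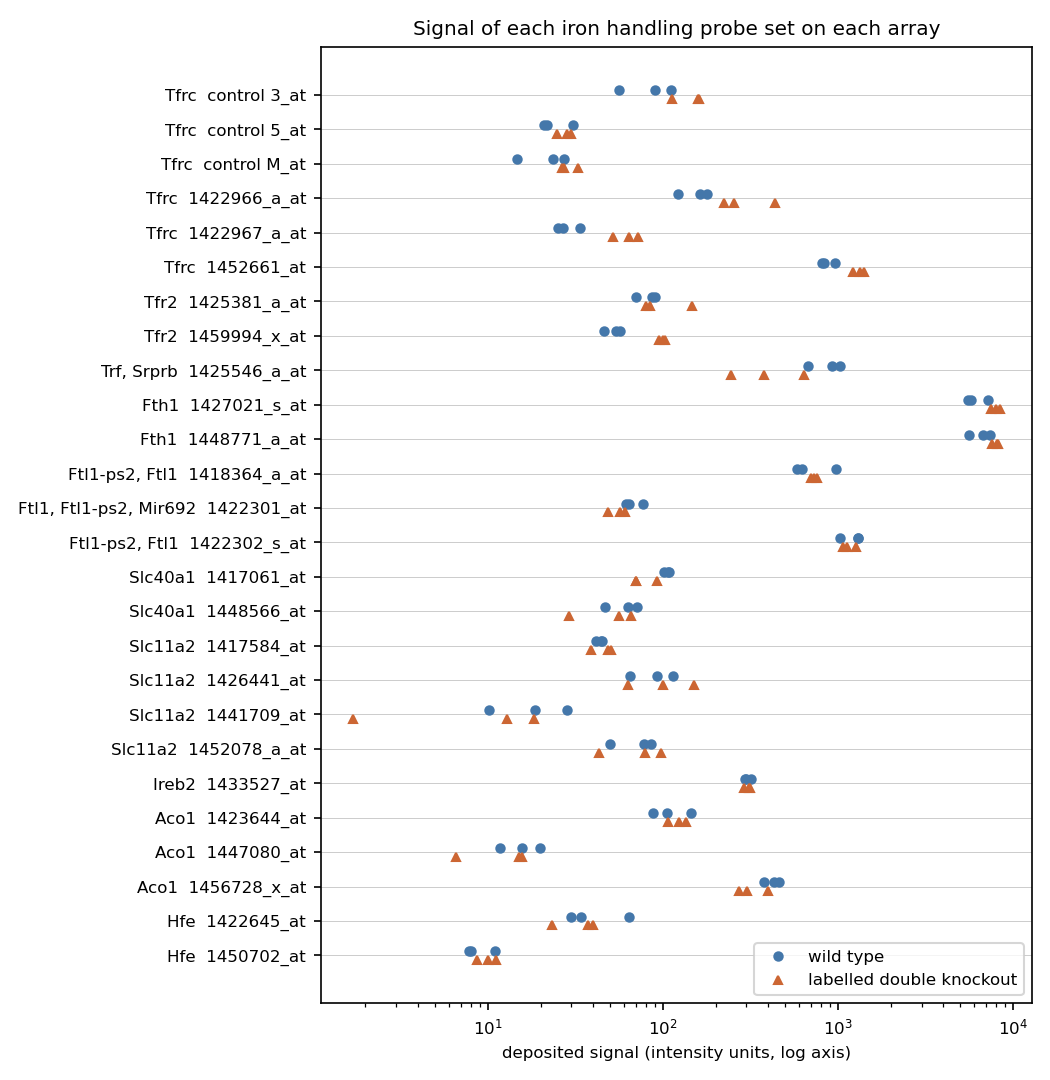
Deposited signal of each of the 26 probe sets on a log axis, with 1 circle for each of the 3 wild type arrays and 1 triangle for each of the 3 knockout-labelled arrays. The triangles lie to the right of every circle for Tfrc 1452661_at, 1422966_a_at, 1422967_a_at and the 3' control, for Tfr2 1459994_x_at and for both Fth1 probe sets, and to the left for 1 Slc40a1 probe set, for the probe set shared by Trf and Srprb and, narrowly, for the one shared with Mir692 genes.

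Tfrc, the receptor that brings transferrin-bound iron into the cell, rose on its brightest probe set. Probe set 1452661_at read 813, 960.2 and 833 in wild type and 1215, 1327 and 1402 in knockout-labelled arrays. The groups were well apart, the highest wild type array lying below the lowest of the other group. The means were 869 ± 79.9 (SD, n = 3) and 1315 ± 94.5 (SD, n = 3), a log2 difference of 0.59 (SE 0.11) or a 1.51-fold change on that scale. The difference lay between 0.54 and 0.66 in all 18 alternative treatments of the data. Treatments that change only the filter or the intensity trend cannot move it. The call was less steady and held in 9 of the 18. The losses included the fits without wild type replicate 1 (log2 0.54), without wild type replicate 3 (0.56), without double knockout replicates 1, 2 or 3 (0.65, 0.58 and 0.54), and with wild type replicate 1 and double knockout replicate 2 both left out (0.54). They also included the fits without the filter or the intensity trend.

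Both dimmer Tfrc probe sets differed in the same direction without reaching the threshold. Probe set 1422966_a_at read 163, 179 and 122 in wild type and 222, 253.5 and 435 in knockout-labelled arrays, a difference of 0.86 (SE 0.23). Double knockout replicate 3 stood far above the other arrays of its group here, and without it the difference was 0.59. Probe set 1422967_a_at read 33.7, 25.3 and 26.8 against 51.6, 63.8 and 71.9, a difference of 0.81 (SE 0.17). Its wild type values lie below the array medians, so its size depends on the pseudocount, being 1.10 with a pseudocount of 1 and 0.45 with 64. It passed the filter on dim probe sets only through its higher group, so its difference adds no support to that of the bright probe set.

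The 3 control probe sets for mouse Tfrc sample the 5' end, the middle and the 3' end of the transcript and were left out of the test as controls. The 3' control read 111, 89.9 and 56.3 in wild type and 113, 159 and 160.2 in knockout-labelled arrays, a difference of 0.68. The groups only just missed each other, since wild type replicate 1 and double knockout replicate 1 were nearly level. The 5' control read 30.5, 21.8 and 20.9 against 24.7, 28.3 and 29.8 (0.12), and the middle control 27.2, 23.6 and 14.8 against 26.4, 27.3 and 32.9 (0.26). Both overlapped between the groups and lay below the array medians. The 3' to 5' ratio of Tfrc, which rises as RNA degrades or as labelling stops short, was therefore higher in every knockout-labelled array, at 4.56, 5.62 and 5.38 against 3.63, 4.13 and 2.70. With so dim a 5' control, this ratio also moves with the 3' signal itself. The same ratio for the Gapdh controls also did not overlap (0.842, 0.806 and 0.873 against 0.922, 0.9497 and 0.881), whereas that for Actb did (1.58, 1.67 and 1.95 against 1.89, 1.68 and 1.75). The part of transcript integrity in the Tfrc difference was not tested.

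**Figure D2:**
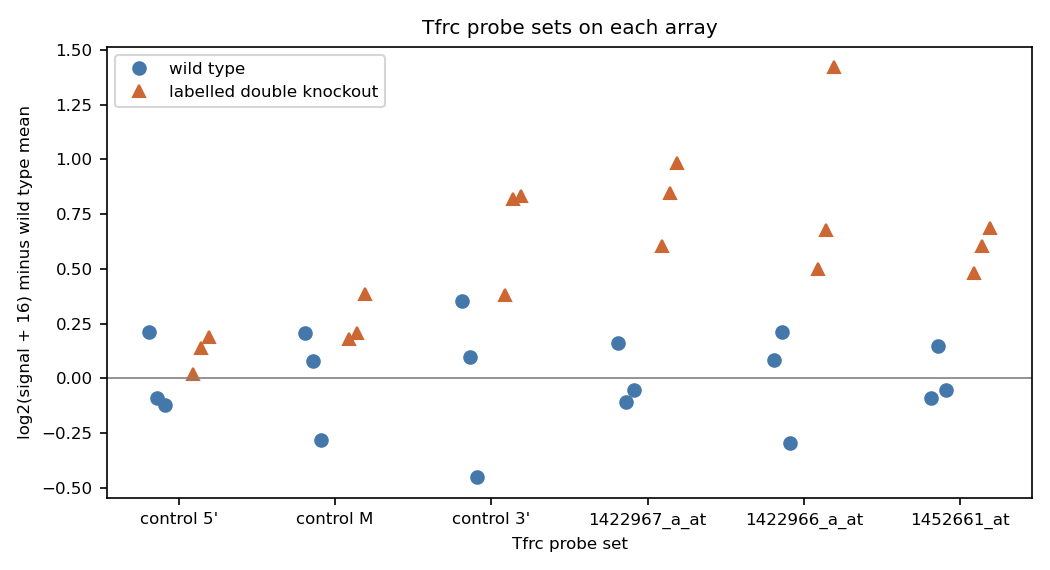
Log2(signal + 16) of the 6 Tfrc probe sets on each array, relative to the wild type mean of that probe set; circles are the 3 wild type arrays and triangles the 3 knockout-labelled arrays. The triangles mix with the circles for the 5' and middle controls and lie above every circle for the 3' control and the other 3 probe sets.

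Capillary endothelium carries Tfrc, so its markers were read beside these values. The 11 endothelial markers with a probe set of their own, of 13 listed, were summed. The sums were 2277 to 2971 in wild type and 2599 to 2946 in knockout-labelled arrays, and so overlapped. None of the 10 tested endothelial markers was called and their median difference was -0.03, but single markers went both ways. The glucose transporter Slc2a1 (log2 difference 0.38) and the receptor Flt1 (0.31) lay above wild type on every knockout-labelled array. For Slc2a1 the margin was slight, with 865 in double knockout replicate 1 against 864 in wild type replicate 3. The transporter Slco1c1 (-0.36) and the untested Cdh5 lay below wild type on every knockout-labelled array. Cdh5 was below the array medians and all but level at its margin, with 31.52 in double knockout replicate 2 against 31.53 in wild type replicate 1. Of the 9 blood genes 4 had a probe set of their own. The alpha globin gene Hba-a1 read at most 10.9 on any array, Alas2 26.8 to 74.5 and Bpgm 418 to 571. Slc4a1 was dim, at 3.78, 0.285 and 12.2 in wild type and 15.0, 17.3 and 14.4 in knockout-labelled arrays, without overlap. Neuron markers summed to 24512 to 30450 in wild type and 29702 to 31610 in knockout-labelled arrays, which overlapped as the endothelial sums did. Rbfox3 (0.32), Syt1 (0.27) and Eno2 (0.20) lay above wild type on every knockout-labelled array and Neurod6 (-0.44) below, none of them called. Of 12 tested neuron markers 7 had a positive and 5 a negative difference, with a median of 0.10. The largest was that of Slc17a7 (0.62), with overlapping groups. The part of endothelial and neuronal RNA in the Tfrc difference was not tested.

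The sequence upstream of Tfrc is shown because the targeted factors bind DNA: Egr proteins recognise a GC-rich element, searched here as GCGTGGGCG or GCGGGGGCG on both strands. RefSeq promoter windows of assembly GRCm38.p6, from 250 bases before to 50 after a transcript start, were matched for 7 of the 10 genes (11 windows). Capitals mark matches to the Egr element or to ACGTG, the core of the hypoxia response element. The first line gives the 250 bases before the start of Tfrc (chr16:32608646-32608895, plus strand), the next 30 bases around the ACGTG that spans this start (chr16:32608889-32608918, plus strand).
Tfrc upstream: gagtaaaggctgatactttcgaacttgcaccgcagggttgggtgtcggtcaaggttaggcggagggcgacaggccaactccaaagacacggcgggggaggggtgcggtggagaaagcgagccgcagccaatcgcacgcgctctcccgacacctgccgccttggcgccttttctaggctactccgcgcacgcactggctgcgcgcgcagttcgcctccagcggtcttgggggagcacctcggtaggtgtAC
Tfrc start: ggtgtACGTGcggaaggaagtgacgtagat
Neither Tfrc window held the Egr element, while the ACGTG core lay across the start and was therefore cut short in the longer stretch. Of all 32851 windows 3.47% held the Egr element and 19.6% the ACGTG core.

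Tfr2, a relative of Tfrc that binds transferrin with lower affinity and takes part in iron sensing, rose on 1 of its probe sets. Probe set 1459994_x_at read 53.7, 57.0 and 46.0 in wild type and 100.3, 102 and 95.1 in knockout-labelled arrays. Arrays within a group were close together and the groups far apart. The means were 52.2 ± 5.65 (SD, n = 3) and 99.2 ± 3.76 (SD, n = 3), a log2 difference of 0.76 (SE 0.14). The signal is dim, and the difference was 0.92 with a pseudocount of 1 and 0.49 with 64. Probe set 1425381_a_at did not follow. It read 86.5, 70.5 and 89.8 in wild type and 84.3, 147 and 80.5 in knockout-labelled arrays, a difference of 0.25 (SE 0.21) that rested on double knockout replicate 2, since without it the difference was 0.0073. The suffix x marks a probe set whose probes can match other transcripts, so the probe set that rose is the less specific of the pair. The call held in 9 of 17 alternatives. The losses included the fits without wild type replicate 1 (log2 0.78), without wild type replicate 3 (0.69), without double knockout replicates 1, 2 or 3 (0.75, 0.74 and 0.79), and with wild type replicate 1 and double knockout replicate 2 both left out (0.76). They also included the fit with no filter.

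Among the 11 windows the Egr element occurred only upstream of Tfr2, in 1 of its 3 windows. The 232 bases before the start of the gene (chr5:137569590-137569821, plus strand, GRCm38.p6) are given with the element and an ACGTG core that shares its first base in capitals.
Tfr2 upstream: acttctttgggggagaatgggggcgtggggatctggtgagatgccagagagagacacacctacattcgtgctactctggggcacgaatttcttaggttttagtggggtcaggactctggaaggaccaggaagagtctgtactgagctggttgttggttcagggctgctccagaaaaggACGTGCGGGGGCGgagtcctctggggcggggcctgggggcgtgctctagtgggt
The element is GCGGGGGCG at chr5:137569772-137569780, read on the strand of the gene. A match describes these letters and does not show that a factor binds there.

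Fth1, the ferritin heavy chain that oxidises iron for storage, had higher signal on both its probe sets, without a call. Probe set 1427021_s_at read 5545, 5728 and 7187 in wild type and 7468, 7942 and 8374 in knockout-labelled arrays, a difference of 0.37 (SE 0.13). Probe set 1448771_a_at read 5614, 6682 and 7359 against 8181, 8077 and 7579, a difference of 0.29 (SE 0.12). The groups did not overlap on either, though wild type replicate 3 came close to the other group on both. These are among the brightest probe sets of the arrays. The signal exceeded by the top 0.1% of probe sets was 5159, 5526 and 6999 for wild type, against 6980, 7144 and 6730 in knockout-labelled arrays. When all arrays were given the same distribution by quantile normalization, the Fth1 differences shrank to 0.11 and 0.0073. Without wild type replicate 3, 1427021_s_at was called (log2 0.49).

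The probe sets of the light chain Ftl1 are shared with the pseudogene Ftl1-ps2, and 1 of them also with Mir692 genes, so no value can be given to Ftl1 itself. The brightest of these shared probe sets, 1422302_s_at, read 1299, 1305 and 1021 in wild type and 1264, 1119 and 1068 in knockout-labelled arrays (-0.06, SE 0.12). Probe set 1418364_a_at, with 585, 979 and 625 against 757, 731 and 705, differed by 0.04 (SE 0.17). On both the groups overlapped, and the sign turned in 1 of 18 and 3 of 18 alternatives. The dimmest, 1422301_at, read 64.4, 77.1 and 61.5 against 61.1, 48.4 and 57.0 (-0.23, SE 0.16), with groups that only just failed to overlap.

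**Figure D3:**
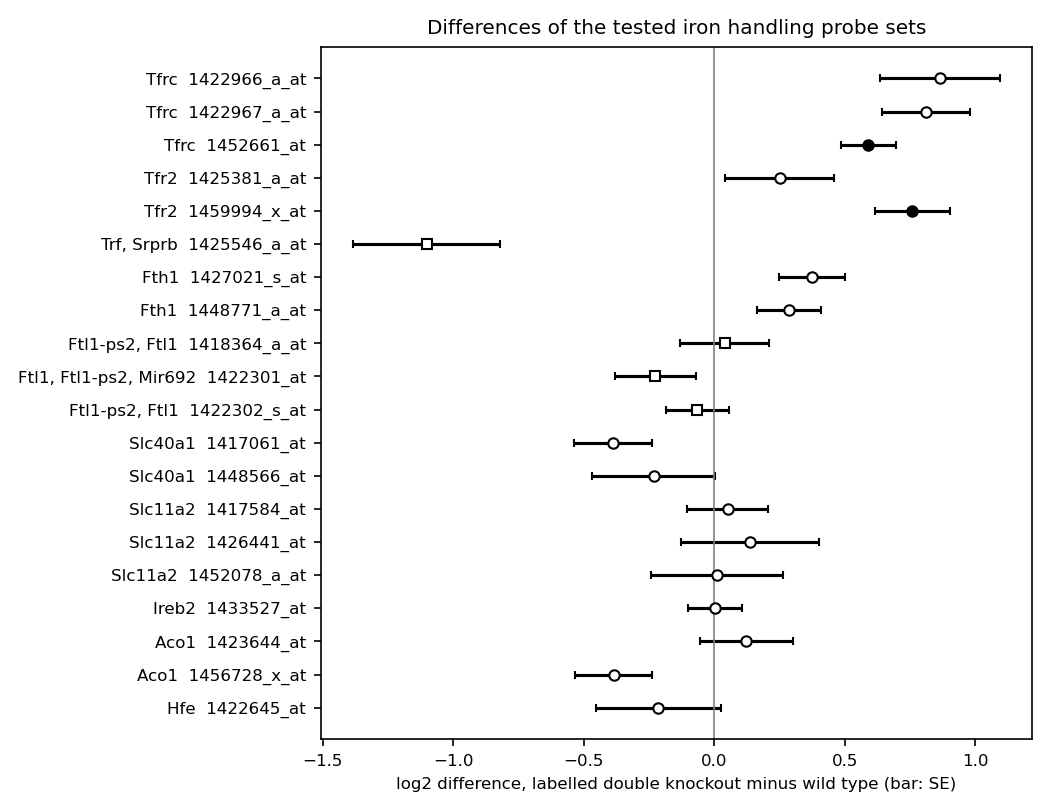
Log2 difference of each tested probe set, double knockout label minus wild type, with its limma standard error; filled symbols were called, squares are shared probe sets. Tfrc 1452661_at (0.59) and Tfr2 1459994_x_at (0.76) are the filled symbols, and the probe set shared by Trf and Srprb (-1.10) lies farthest to the left.

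The single probe set annotated to transferrin is shared with Srprb, which encodes a subunit of the signal recognition particle receptor, and cannot be assigned to either gene. Its signal, 920.2, 1025 and 673 in wild type, was 640.2, 246 and 378 in knockout-labelled arrays. Every array of the latter group lay below wild type, but double knockout replicate 1 was only slightly below wild type replicate 3. The means were 873 ± 181 and 421 ± 201 (SD, n = 3 each), a difference of -1.10 (SE 0.28). This was the largest difference of all 26 probe sets, and it was not called with all arrays. Without double knockout replicate 1 it was -1.45 and was called. Srprb had 3 probe sets of its own, which differed by 0.13 (SE 0.16), -0.17 (SE 0.14) and -0.15 (SE 0.18), and all of them overlapped between the groups.

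Oligodendrocytes and choroid plexus make transferrin, so their markers were read beside this probe set. Of 14 oligodendrocyte markers 13 had a probe set of their own. These 13 summed to 21246, 22256 and 22180 in wild type and 28068, 22504 and 25728 in knockout-labelled arrays. Every knockout-labelled sum was the higher. That separation rested on the bright myelin basic protein gene Mbp, since the other 12 markers summed to 15094, 14811 and 12952 in wild type and 18406, 12343 and 16496 in knockout-labelled arrays, which overlap. Single markers went both ways. Mbp (log2 difference 0.37, narrowly) and Cnp (0.28) lay above wild type on every knockout-labelled array, while Ermn (-0.50), Gjb1 (-0.33) and Ugt8a (-0.26) had the most negative differences of the list. Ermn (103), Mobp (2380), Mal (1844), Opalin (271), Aspa (106) and Ugt8a (767) had their lowest signal in double knockout replicate 2. The shared probe set was lowest on this array too, but Mbp (10160) and Sox10 (331) were highest there. Mog (374), Mag (645), Cldn11 (721) and Gjb1 (31.5) were lowest in wild type replicate 3, and Cnp (3869) in wild type replicate 2. None of the 13 was called, and their median difference was 0.13. The 11 choroid plexus markers with a probe set of their own were summed. The sums were 272, 512 and 11570.2 in wild type and 4934, 205 and 222 in knockout-labelled arrays. Transthyretin (Ttr) read 10347 in wild type replicate 3 and 4697 in double knockout replicate 1 and at most 375 elsewhere. It made up 89.4% and 95.2% of the sum on these arrays, 73.3% in wild type replicate 2, and 15.6% to 26.2% on the other 3 arrays. The array with the most choroid plexus signal, wild type replicate 3, had the lowest shared probe set signal of its group, while double knockout replicate 1 had the highest of its own. Outside wild type replicate 3, Otx2 read at most 1.05 and Kcne2 at most 6.18. The part of oligodendrocytes and choroid plexus in the shared probe set was not tested. In whole cortex, fewer cells of a type and less RNA per cell cannot be told apart.

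**Figure D4:**
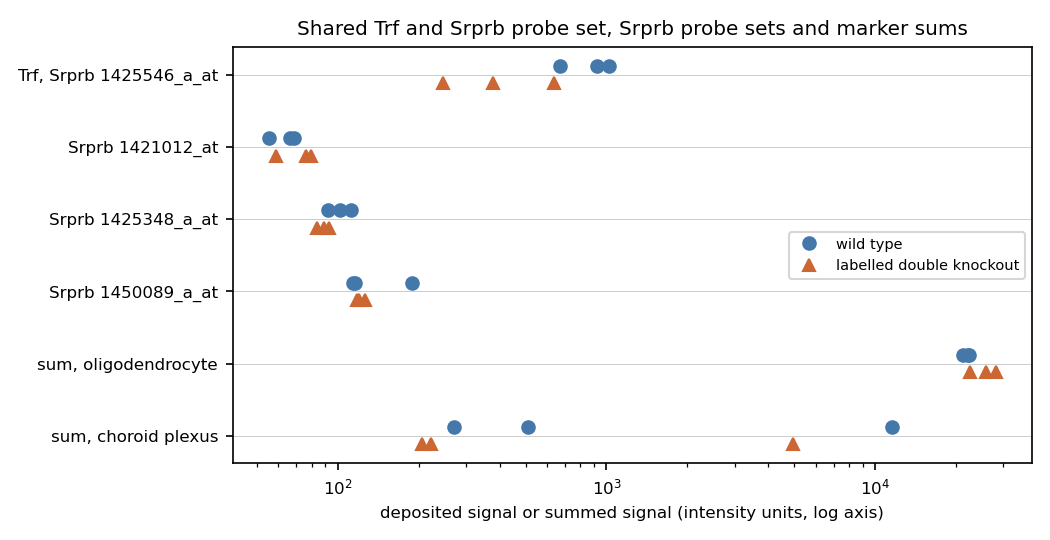
Signal of the probe set shared by Trf and Srprb, of the 3 probe sets of Srprb alone, and of the summed oligodendrocyte and choroid plexus markers, on a log axis, with circles for the 3 wild type arrays and triangles for the 3 knockout-labelled arrays. The triangles of the shared probe set lie at 246 to 640.2 and its circles at 673 to 1025, while symbols mix for all 3 Srprb probe sets and for choroid plexus.

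Slc40a1, ferroportin, the exporter that releases iron from cells, had lower signal on 1 probe set. Probe set 1417061_at read 109, 106 and 102 in wild type and 92.8, 69.9 and 69.8 in knockout-labelled arrays, a difference of -0.39 (SE 0.15). All 3 arrays were below wild type, by little in replicate 1, and no alternative called it. Probe set 1448566_at read 71.5, 46.6 and 63.0 against 56.3, 29.1 and 65.7 (-0.23, SE 0.24), where double knockout replicate 2 was lowest and the groups overlapped. Microglia express ferroportin and store iron. The 13 microglial markers with a probe set of their own were summed. The sums were 4226 to 5101 in wild type and 3168 to 4156 in knockout-labelled arrays. All 12 tested markers had a negative difference (median -0.42), and none was called. Of 10 tested astrocyte markers 5 had a positive and 5 a negative difference (median 0.02). They ran from Aqp4 (-0.96), which was called, to Gjb6 (0.58). The part of microglia or of any other cell type in the Slc40a1 values was not tested.

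Slc11a2, the endosomal iron transporter, overlapped between the groups on all 4 of its probe sets. The brightest, 1426441_at, read 93.1, 114 and 65.2 in wild type and 99.5, 150.3 and 63.3 in knockout-labelled arrays (0.14, SE 0.26). Arrays of 1 group differed by more than the groups did. The same was seen on 1452078_a_at, with 78.0, 85.0 and 49.7 against 78.7, 97.6 and 43.1 (0.0091, SE 0.25). On 1417584_at the values were 44.2, 44.6 and 41.6 against 38.7, 50.3 and 48.3 (0.05, SE 0.16). The remaining probe set read 1.70 to 28.3 and was too dim to be tested.

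Hfe, the haemochromatosis protein that binds Tfrc and competes with transferrin, was near or below the array medians. Its tested probe set read 34.0, 29.8 and 64.1 in wild type and 23.2, 37.4 and 39.9 in knockout-labelled arrays (-0.22, SE 0.24). Wild type replicate 3 alone was high, and without it the sign turned (0.03). The other Hfe probe set read between 7.76 and 11.1 on every array and was not tested.

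The regulators of Tfrc and ferritin messages differed little or unevenly. Ireb2 read 295, 319 and 297 in wild type and 289, 314 and 309 in knockout-labelled arrays, a difference of 0.0037 (SE 0.10). The values of both groups fell in the same narrow range, and over 18 alternatives the difference stayed between -0.04 and 0.04. Aco1 was read by 3 probe sets. On 1456728_x_at it gave 459.9, 433 and 378 in wild type and 398, 270.3 and 303 in knockout-labelled arrays (-0.39, SE 0.15), where double knockout replicate 1 lay within the wild type range. On 1423644_at it gave 144, 87.3 and 106 against 124, 135 and 107 (0.12, SE 0.18), fully overlapping, and the last read 6.57 to 19.8 and was too dim to be tested. The Aco1 probe sets thus pointed in different directions, and the one with the negative difference again bears the suffix x.

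The rest of the iron pathway was read from 81 other genes written down by role. Of these 75 had a probe set of their own and 58 were tested, each by its brightest such probe set. None was called by limma in either direction, where 1.22% of the 11053 tested genes were called by their brightest probe set. None was called either when all probe sets of a gene were counted or their mean was used. At an unadjusted p under 0.05 there were 5 of 58 (Slc25a28, Slc25a37, Ppox, Flvcr1 and Slc39a14), beside 17.5% of all tested genes. The median difference of the 58 was 0.00064 and that of all tested genes 0.0083, with 30 above 0 and 28 below.

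The mitochondrial iron importers pointed in opposite directions. Slc25a28 (mitoferrin 2) read 295, 266 and 260.0 in wild type and 374, 362 and 402 in knockout-labelled arrays, a difference of 0.45 (SE 0.11, limma adjusted p = 0.0845). Slc25a37 (mitoferrin 1) read 119.9, 165 and 122 against 66.4, 118 and 86.9, a difference of -0.53 (SE 0.20, limma adjusted p = 0.224). In both the groups did not overlap. They were the extremes of 16 tested genes of mitochondrial iron and iron-sulfur cluster assembly, whose median difference was 0.06.

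Among 13 tested genes of heme synthesis, breakdown and transport the median difference was 0.00012. Ppox, an enzyme late in heme synthesis, had the most negative, with 97.8, 137 and 125 in wild type and 69.8, 92.5 and 65.5 in knockout-labelled arrays (-0.56, SE 0.17, limma adjusted p = 0.150). All 3 arrays were below wild type. Alas2, the erythroid form of the first enzyme, differed by -0.42 (SE 0.25, adjusted p = 0.432) with overlapping groups. Flvcr1, a heme exporter named after its value was seen, differed by -0.41 (SE 0.14, limma adjusted p = 0.200).

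Of 8 tested genes of iron uptake and reduction 6 were below 0 (median -0.16). Slc39a14, a transporter of iron that is not bound to transferrin, read 133, 142 and 133 in wild type and 105, 101 and 107 in knockout-labelled arrays, without overlap (-0.34, SE 0.12, limma adjusted p = 0.219). Steap2, a metalloreductase, differed by -0.32 (SE 0.17, limma adjusted p = 0.397). The ferroxidase ceruloplasmin (Cp), which works with ferroportin, differed by 0.20 (SE 0.19, limma adjusted p = 0.662). Ferritin turnover and iron chaperone genes were nearly level, with 6 tested genes between -0.09 (Ncoa4, the receptor for ferritin autophagy) and 0.08 (Cul1, a ubiquitin ligase scaffold).

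The pathway that sets the iron hormone hepcidin had 11 tested genes with a median of -0.05, the most negative being the inhibitory Smad7 (-0.36, SE 0.17, limma adjusted p = 0.334) and the receptor Acvr1 (-0.34, SE 0.16, limma adjusted p = 0.332). Of other messages reported to carry an iron-responsive element 4 were tested (median 0.02). They ranged from Alas2 at -0.42 to App, the amyloid precursor, at 0.25 (SE 0.14, limma adjusted p = 0.396).

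**Figure D5:**
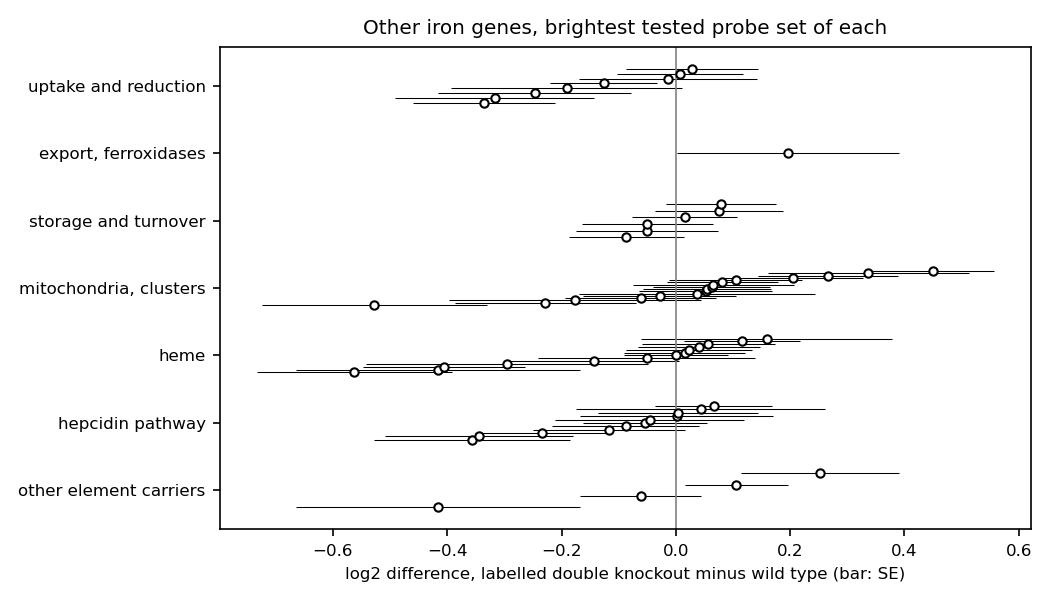
Log2 difference of each tested gene of the other iron lists, double knockout label minus wild type, with its limma standard error, 1 row of points for each list. No gene was called, and the extremes are Ppox (-0.56) on the heme row and Slc25a28 (0.45) on the mitochondrial row.

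Genes whose arrays ran most like those of Tfrc were found by the root mean square difference of log2 profiles over the 6 arrays, each centred on its own mean. For Tfrc 1452661_at the closest of all tested genes besides the 10 were Scg5, a secretory chaperone (0.068), 2610005L07Rik (0.070), Sat1, a polyamine acetyltransferase (0.078), Lmna, which encodes nuclear lamins (0.082), and Fam107a, an actin-associated protein (0.082). Scg5 read 2095, 2297 and 1927 in wild type and 2878, 3159 and 3071 in knockout-labelled arrays. For Tfrc 1422966_a_at, the tested probe set of a single member with the largest difference, they were Mgp, a matrix protein that inhibits calcification (0.20), Ccdc136 (0.21), Coro6, a coronin (0.23), Ovgp1, an oviductal glycoprotein (0.24), and Fam107a (0.24). Mgp shared the high double knockout replicate 3, with 387, 356 and 358 in wild type and 667, 626 and 1182 otherwise. Only Fam107a was near both Tfrc probe sets in these lists of 5. Both reference probe sets differ between the groups, so the search favours genes with a like group difference (Scg5 0.53, Mgp 1.08). Nothing further is read from these lists.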

How the data were processed

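Affymetrix signals of 6 arrays were used. The deposited values are linear intensities of probe sets, scaled by the authors so that the mean after trimming 2% at each end was 150.0 on every array; the software and the build are not given in the sources used here. Signals were floored at 1 (4.35% of values) and log2(signal + 16) taken. Control probe sets were left out of the fit. Probe sets with a mean above the median (22518) were tested for the group difference in R 4.3.3 by limma 3.58.1 (lmFit, then eBayes with an intensity trend, no covariate), with Benjamini-Hochberg adjustment. An exact permutation test of 3 against 3 cannot go below 0.1 and was not used. The step was also run on simulated arrays with independent normal noise and planted changes. Such data hold no outlier arrays or array-wide shifts, so this run says nothing on those.

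Symbols come from the platform's annotation, updated by gene number in RefSeq (GRCm38.p6): 34945 probe sets had 1 symbol, 932 several and 9160 none. The members and gene lists were chosen with earlier results of these data known. Named were all member probe sets, called genes and the 2 largest differences of each other iron list, the 5 profiles nearest to each of 2 Tfrc probe sets, Egr1, Egr3 and markers. Alternatives were pseudocounts of 1 and 64, quantile or median normalization, no filter or the 75% quantile, no or robust trend, array weights, the replicate block, and arrays left out. One more, with the 3 Tfrc controls in the table, was chosen after seeing the data. Python 3.11.15 and matplotlib 3.10.9 drew the figures.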

Additional observations from a re-analysis of the deposited data

How the results depend on the processing

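The difference of Tfrc 1452661_at kept its sign in all 18 alternatives and that of Tfr2 1459994_x_at in all 17, but the 2 calls among the members depended on the treatment. The sign was little at stake, since changes of filter, trend or block leave the difference itself unmoved. Groups that do not overlap also keep their sign when arrays are left out. The count of called member probe sets became 0 with no filter, 0 with the replicate block, under which both calls were lost, and 0 with wild type replicate 1 and double knockout replicate 2 both left out, and it became 1 under the stricter filter, at which the Tfr2 probe set was too dim to be tested. With 1 array left out it lay between 0 and 2. The count over all probe sets, 229, became 10 with no filter, 131 with no intensity trend and 12 without both of these arrays, and lay between 34 and 292 with 1 array left out; with the replicate block it was 182. Same-numbered arrays did not deviate together (correlations of -0.147, 0.0013 and -0.101), so the numbers were not taken as a pairing. The count of other iron genes called was 0 in every alternative run. No called value changed sign. Only 3 arrays a group limit the precision.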
